A study of Mus musculus with 4 samples.

Results

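Ribosome biogenesis begins in the nucleolus, where RNA polymerase I copies the ribosomal DNA and a long series of factors cuts, modifies and folds the transcript into the precursors of the small and large ribosomal subunits. A list of 45 genes for this machinery was examined in mouse blood progenitors that lack Asxl1. A member was any row of the deposited table that describes a single locus and names the gene, alone or merged with other gene names. Of the 45 symbols, 44 were found among 17956 single-locus rows, and Noc2l was not analysed here. All 44 passed the filter on low values (at least 10 in at least 2 libraries), which 13764 loci passed. The rows of 11 members were merged with at least 1 other named gene, and the reads of such a row cannot be divided between the genes.

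RNA polymerase I, with the factors UBF and RRN3, makes the ribosomal precursor RNA. Small nucleolar RNAs (snoRNAs) then guide its modification: box C/D snoRNAs guide 2′-O-methylation by fibrillarin, and box H/ACA snoRNAs guide pseudouridylation by dyskerin. Helicases, GTPases and scaffold proteins assemble each subunit, and blocked assembly is known to stabilise p53 through the free ribosomal proteins RPL5 and RPL11. The transcription factor MYC is a known activator of many of these genes, in blood progenitors as in other dividing cells.

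The cells were bone-marrow Lin-Kit+ cells of C57BL/6 mice, a fraction that lacks markers of mature lineages and carries the stem-cell factor receptor Kit. There were 2 libraries from Asxl1-/- mice (KO) and 2 from wild-type mice (WT). The labels give no age, no treatment and no account of how the allele was made, and they do not say that the libraries of a genotype came from separate animals. Total RNA of 2000000 cells was used per library. Values are normalised read counts, which are the authors' read counts multiplied by 1 factor per library. Fold changes are log2(value + 1) differences of KO over WT, with their SE, from limma across all tested loci.

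The KO libraries held 83586916 and 76688583 reads and the WT libraries 46597871 and 49764454. Asxl1 was at 146 and 135 in the KO libraries, against 9742 and 9472 in the WT libraries, and so matched the labels. Replicate 1 of each genotype had high Xist (row Tsix+Xist, 89290 in KO and 103006 in WT). Replicate 2 had high Y-linked Uty (2461 in KO and 2701 in WT), which in replicate 1 was at 0.758 in KO and 2.59 in WT. The Tsix+Xist row in replicate 2 was at 147 in KO and 2123 in WT. The replicates of a genotype therefore differed in sex markers. Values within each replicate pair are given for the members as a set, the called members, Rrp9 and Nop10.

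The nucleolar genes changed little in KO cells. Of the 44 members, 3 fell and 0 rose at an adjusted p under 0.05. The 3 were Npm1 (nucleophosmin), the small-subunit factor Utp15 and the large-subunit helicase Ddx18, each lower by about the same proportion, between 14.2% and 15.4%. Among all tested loci 8.97% were called lower and 11.9% higher, so the members' 6.82% lower was not above the background. Among the 7204 tested loci whose mean value lay within the members' range of 1348 to 111335, 9.48% were called lower. At an unadjusted p under 0.05, limma had 8 members lower and 1 higher, the higher one being Gnl2. The share of all tested loci at this unadjusted threshold was not computed, so counts at it, here and below, have no background. No member was called higher by edgeR, DESeq2 or limma-voom either.

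**Figure D1:**
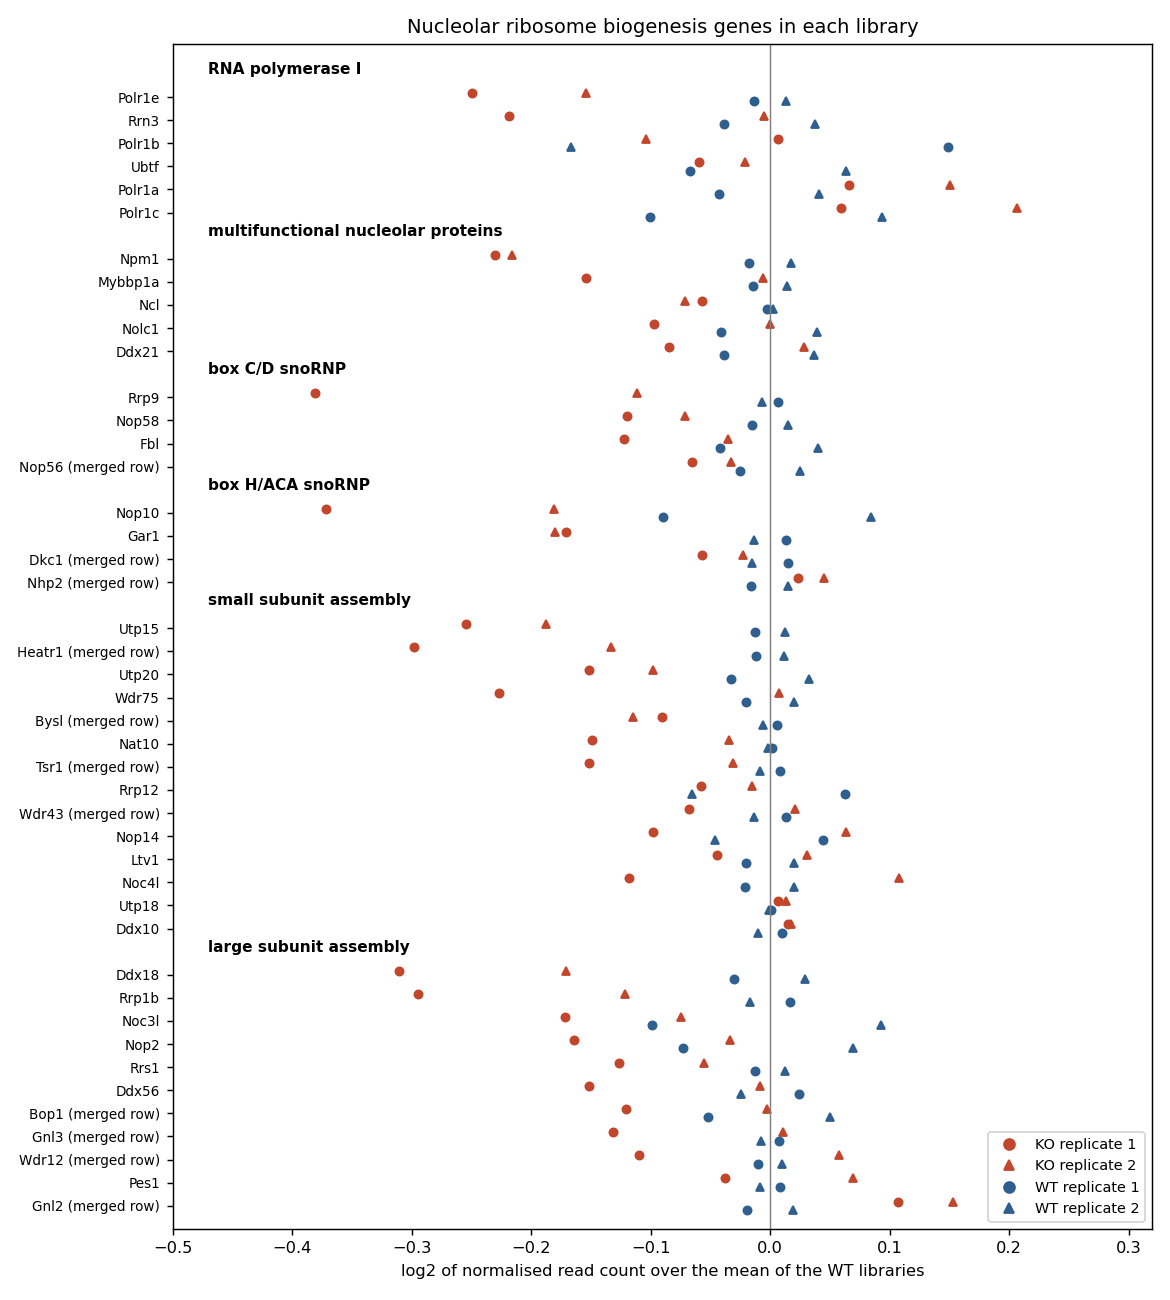
Each row is 1 gene and each symbol 1 library, placed by the log2 ratio of its normalised read count to the mean of the WT libraries. KO symbols are red and WT symbols blue, with circles for replicate 1 and triangles for replicate 2. Npm1, Utp15 and Ddx18 had both KO libraries below both WT libraries, and for most genes KO replicate 1 lay left of KO replicate 2.

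The median log2 fold change of the members was -0.07, beside -0.01 over all tested loci, and 37 of the 44 (84.1%) were below 0. Of all tested loci 50.9% were below 0, and of those in the members' range of values 48.6%. Summed over the members, the normalised read count was 533100 and 553864 in the KO libraries, against 575586 and 585864 in the WT libraries. Npm1 alone made up 102240 and 103235 of it in KO, against 118455 and 121410 in WT, and the sum includes the 11 merged rows. Both KO libraries lay below both WT libraries for 18 members and above them for 5, while 21 overlapped. Among all tested loci 33.6% had both KO libraries below and 32.5% had both above. In bulk RNA, fewer cells of a type and less RNA per cell cannot be told apart.

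The difference between the KO libraries was of the same size as the difference between the genotypes. KO replicate 1 was below KO replicate 2 for 40 of the 44 members, with a median log2 difference of -0.10, while WT replicate 1 differed from WT replicate 2 by a median of -0.03. Against the WT mean, the members' median was -0.12 in KO replicate 1 and -0.02 in KO replicate 2. Within replicate pairs the median log2 difference of KO minus WT was -0.10 in pair 1, with 37 members below 0, and -0.04 in pair 2, with 28 below 0. In both pairs the same 27 members were below 0.

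The range of change was narrow. Fold changes ran from -0.27 for Nop10 to 0.14 for Polr1c, and the 95% interval of every member stayed within 1.5-fold, with bounds between -0.51 and 0.37. The median size of the change, ignoring direction, was 0.085 for the members, against 0.21 over all tested loci and 0.136 over the loci in the members' range of values. No member differed by more than 1.25-fold, whereas 36.2% of all tested loci and 18.7% of loci in that range did. These intervals rest on 2 libraries per genotype and on a spread estimated across loci.

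**Figure D2:**
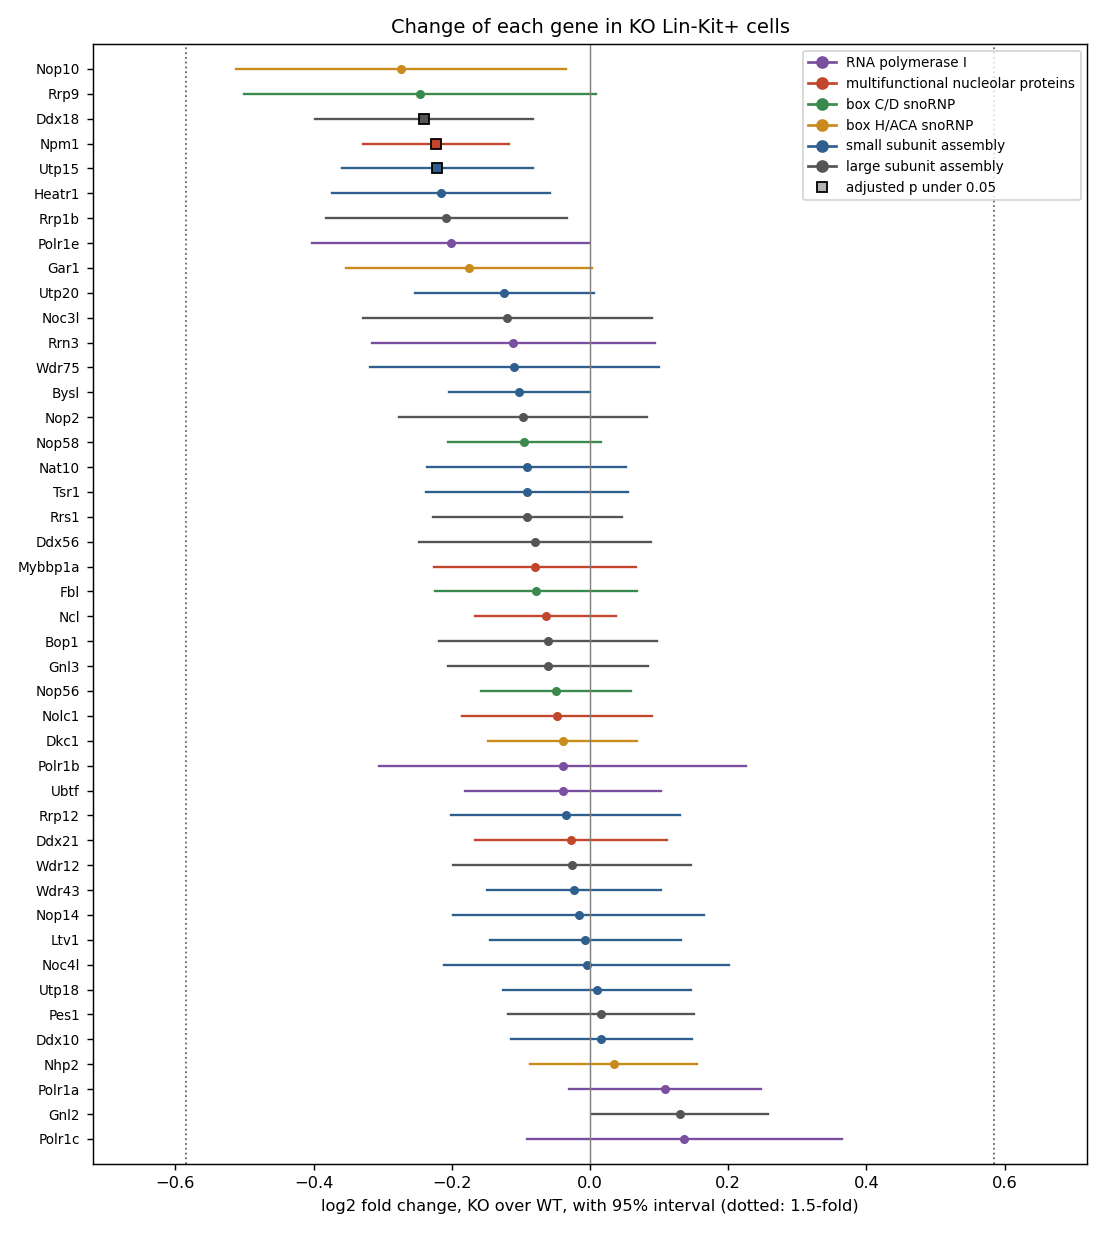
Log2 fold change of KO over WT for each of the 44 genes, with its 95% interval, coloured by role. Squares mark adjusted p under 0.05, which Ddx18, Npm1 and Utp15 reached, and every interval lies between the dotted lines at 1.5-fold.

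**Figure D3:**
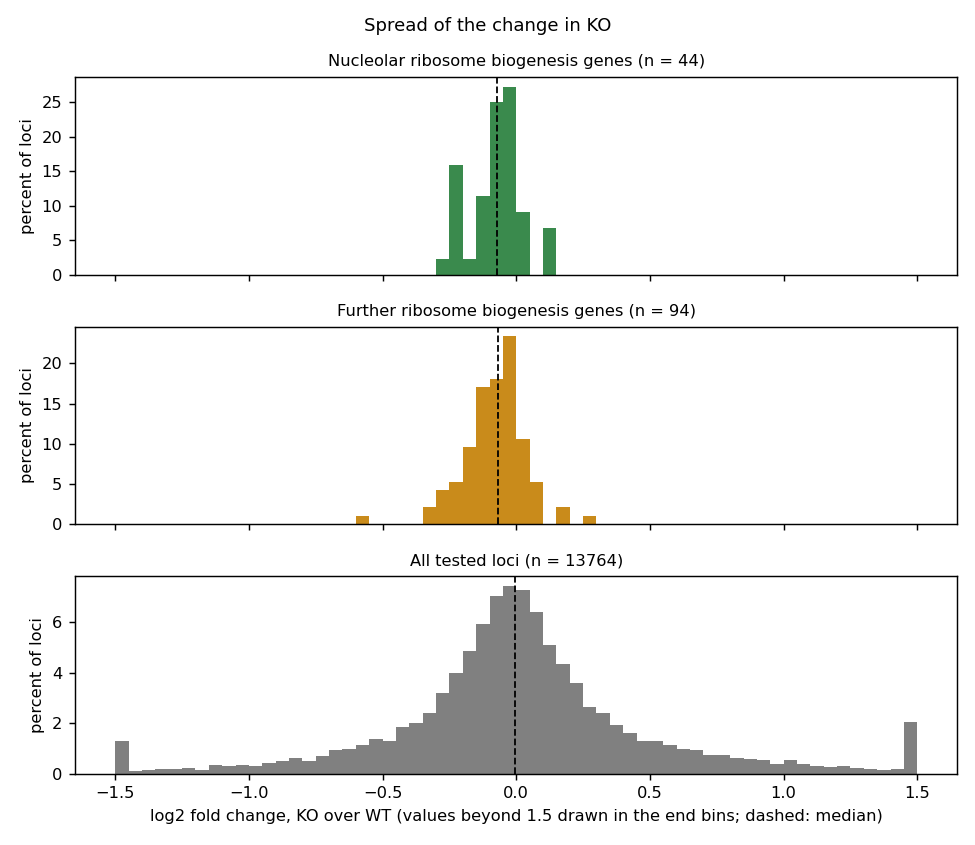
Share of loci (percent) by log2 fold change of KO over WT, for the 44 nucleolar genes, the 94 further ribosome biogenesis genes and all 13764 tested loci. Dashed lines are medians, at -0.07 for both gene lists and -0.01 for all loci, and the lists are narrower than the whole.

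Among the RNA polymerase I genes none of 6 passed the threshold. At an unadjusted p under 0.05 limma had 1 lower, Polr1e, and edgeR, DESeq2 and limma-voom called none after adjustment. Polr1e, which encodes the subunit PAF53, had the smallest adjusted p. It was at 1213 and 1296 in the KO libraries, against 1429 and 1455 in the WT libraries. The KO libraries were the lower ones without overlap, with a fold change of -0.20 ± 0.08 (adjusted p = 0.13). The catalytic subunit genes did not pass: Polr1a had 0.11 ± 0.06 and Polr1b -0.04 ± 0.11. Polr1c, whose product also serves RNA polymerase III, had 0.14 ± 0.09. The initiation factor gene Rrn3 had -0.11 ± 0.08, and Ubtf, whose product UBF keeps ribosomal DNA open, had -0.04 ± 0.06.

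Of the abundant multifunctional proteins, Npm1 alone passed. Nucleophosmin is a histone chaperone and carrier of pre-ribosomal particles, and its gene is often mutated in human acute myeloid leukaemia. Npm1 had 102240 and 103235 in the KO libraries, against 118455 and 121410 in the WT libraries. The genotypes were well apart, since the libraries of a genotype differed by far less than the means did. The mean was 102737 ± 704 in KO and 119933 ± 2089 in WT (SD, n = 2 each), a fold change of -0.22 ± 0.04 (adjusted p = 0.0198). Pair 1 gave -0.21 and pair 2 gave -0.23. Without WT replicate 1 the fold change was -0.24 and without WT replicate 2 it was -0.21. Such a fit leaves 1 library in a group, so no p-value is given for it. Over the alternatives with all 4 libraries the adjusted p ran from 8.16e-05 (DESeq2) to 0.0367 (edgeR with RLE scaling).

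Ncl encodes nucleolin, which binds the nascent ribosomal precursor. Its values of 95358 and 94394 in KO lay just below 98993 and 99352 in WT, with a fold change of -0.06 ± 0.04 (adjusted p = 0.313). Nolc1, a chaperone of snoRNA particles, had -0.05 ± 0.06. Ddx21, a helicase that joins polymerase I transcription to processing, had -0.03 ± 0.06, and Mybbp1a, a MYB-binding nucleolar protein, had -0.08 ± 0.06. The KO and WT libraries overlapped for these 3 genes.

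Set per exon length, Npm1 had the highest level of the 33 members with a row of their own. The length was the union of a gene's annotated exons, so these levels depend on the annotation. It had an RPKM (reads per kilobase, scaled to a fixed library total) of 795 and 803 in KO, against 966 and 985 in WT. Ncl, with a union length of 8202 bases, followed with an RPKM of 183 ± 1.17 in KO and 199.8 ± 0.29 in WT (SD, n = 2 each). With the deposited scaling the change of Ncl was -4.33%. The lowest level per length was that of Polr1e, at 5.55 and 5.94 in KO and 6.87 and 6.96 in WT.

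With all 4 libraries and genotype as the only term, none of the 4 genes of box C/D particles passed, at an unadjusted p under 0.05 in limma or by edgeR, DESeq2 or limma-voom. Rrp9, which encodes a protein specific to the U3 snoRNA particle, had the smallest adjusted p of the 4. It had 1452 and 1750 in the KO libraries, against 1900 and 1882 in the WT libraries. KO replicate 1 was the low one, so that the fold change of -0.25 ± 0.10 (adjusted p = 0.143) was -0.39 in pair 1 and -0.10 in pair 2. With a library left out the fold change of Rrp9 ran from -0.38 (without KO replicate 2) to -0.11 (without KO replicate 1). The methyltransferase gene Fbl had -0.08 ± 0.06 and the core protein gene Nop58 -0.10 ± 0.05. Nop56, also a core protein, shares its row with Idh3b and had 24468 and 25022 in KO, against 25151 and 26046 in WT (-0.05 ± 0.04).

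In the box H/ACA particle, which also belongs to telomerase, Nop10 and Gar1 had larger differences than their partners, none of them past the threshold. Nop10 had 1929 and 2202 in the KO libraries, against 2345 and 2645 in the WT libraries. All KO values were below all WT values, but the libraries of each genotype differed widely, and the fold change of -0.27 ± 0.10 did not pass (adjusted p = 0.0978). Pair 1 gave -0.28 and pair 2 gave -0.26. With a library left out the fold change of Nop10 ran from -0.37 (without KO replicate 2) to -0.18 (without KO replicate 1). Gar1 had -0.18 ± 0.07 (adjusted p = 0.138). The pseudouridine synthase gene Dkc1, merged with Mpp1, had 17458 and 17870 in KO, against 18348 and 17966 in WT (-0.04 ± 0.04). Nhp2, merged with Rmnd5b, had 6377 and 6473 in KO, against 6206 and 6341 in WT (0.03 ± 0.05, and below 0 with upper-quartile or CPM scaling). With genotype as the only term and all 4 libraries, 0 of the 4 genes were called by limma, edgeR, DESeq2 or limma-voom, and 1, Nop10, was lower at an unadjusted p under 0.05.

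Of 14 genes for small-subunit assembly, Utp15 fell. UTP15 belongs to the subcomplex that binds the precursor RNA first and links it to polymerase I transcription. Utp15 had 3853 and 4037 in the KO libraries, against 4558 and 4636 in the WT libraries. The genotypes did not overlap, with means of 3945 ± 130 in KO and 4597 ± 55.3 in WT (SD, n = 2 each) and a fold change of -0.22 ± 0.06 (adjusted p = 0.0423). The pairs gave -0.24 and -0.20. The call was lost with edgeR and TMM or RLE scaling (adjusted p = 0.0597 and 0.0625) and with no filter (0.0537). With a library left out the fold change ran from -0.25 (without KO replicate 2) to -0.19 (without KO replicate 1).

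Other members of the same subcomplex did not pass in the limma fit with the deposited scaling. Heatr1 (UTP10 in yeast), merged with Lgals8, came closest with 11064 and 12400 in KO, against 13489 and 13711 in WT (-0.22 ± 0.06, adjusted p = 0.0636). It passed with DESeq2 (adjusted p = 0.0273), upper-quartile scaling (0.0309) and CPM scaling (0.0299). With a library left out its fold change ran from -0.30 (without KO replicate 2) to -0.13 (without KO replicate 1). Wdr43, merged with mKIAA0007, had 10883 and 11579 in KO, against 11515 and 11304 in WT, and the genotypes overlapped. Wdr75 had -0.11 ± 0.09, with -0.23 without KO replicate 2 and 0.0079 without KO replicate 1.

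The remaining small-subunit genes stayed between -0.12 (Utp20) and 0.02 (Ddx10). Bysl, whose product acts late in assembly, shares its row with the cyclin gene Ccnd3 and had 25525 and 25098 in KO, against 27288 and 27060 in WT (-0.10 ± 0.04, adjusted p = 0.131). Tsr1, a GTPase-like factor merged with Srr, mKIAA1401 and Snord91a, had 5788 and 6290 in KO, against 6465 and 6392 in WT (-0.09 ± 0.06). In both rows the KO libraries were the lower ones. Nat10, which acetylates cytidines of the small-subunit RNA, had -0.09 ± 0.06. The export factor gene Rrp12 had -0.04 ± 0.07, Nop14 -0.02 ± 0.07, Ltv1 -0.01 ± 0.06, Noc4l -0.00 ± 0.08 and Utp18 0.01 ± 0.06.

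Of 11 genes for large-subunit assembly, Ddx18 fell. DDX18 is a DEAD-box helicase of the early large-subunit particles. Ddx18 had 5957 and 6563 in the KO libraries, against 7236 and 7541 in the WT libraries. Its KO values were the lower ones without overlap, with means of 6260 ± 429 in KO and 7388 ± 216 in WT (SD, n = 2 each) and a fold change of -0.24 ± 0.06 (adjusted p = 0.0483). The pairs gave -0.28 and -0.20. The call was lost with limma-voom (adjusted p = 0.0534), with no filter (0.0595) and in the fit with joined rows (0.0505). With a library left out the fold change ran from -0.31 (without KO replicate 2) to -0.17 (without KO replicate 1).

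The PeBoW complex, which matures the 5.8S and large ribosomal RNAs, had no gene past the threshold. Its genes Pes1, Bop1 and Wdr12 had 0.02 ± 0.05, -0.06 ± 0.06 and -0.03 ± 0.07. Bop1, merged with AK211096 and Heatr7a, had 7553 and 8196 in KO, against 7922 and 8500 in WT. Wdr12, merged with Carf, had 4545 and 5105 in KO, against 4871 and 4939 in WT. KO and WT overlapped for all 3.

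The nucleolar GTPase genes differed in sign. Gnl3 encodes nucleostemin, known for its abundance in stem cells, and its row also holds Spcs1 and Glt8d1. It had 13881 and 15317 in KO, against 15288 and 15122 in WT, with overlap (-0.06 ± 0.06, adjusted p = 0.497). Gnl2, merged with Dnali1, had 5992 and 6186 in KO, against 5489 and 5636 in WT, so that the KO values were the higher ones (0.13 ± 0.05, adjusted p = 0.125). Of the other large-subunit genes, Rrp1b had -0.21 ± 0.07 (adjusted p = 0.0889), Noc3l -0.12 ± 0.09, the methyltransferase gene Nop2 -0.10 ± 0.07, Rrs1, which helps to install the 5S particle, -0.09 ± 0.06, and the helicase gene Ddx56 -0.08 ± 0.07.

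Other genes of the pathway, 94 in number, were examined as well, of which 1 rose and 4 fell. The 5.32% called in either direction stand beside 2875 of all 13764 tested loci, of which 1235 (8.97%) were lower and 1640 (11.9%) higher. Their median was -0.07 and 76 (80.9%) were below 0, beside 50.9% of all tested loci. The largest change was that of Znrd1, which encodes the zinc-ribbon subunit of RNA polymerase I. Znrd1 had 1093 and 1009 in the KO libraries, against 1609 and 1534 in the WT libraries. Both KO values were well below the WT values, with a fold change of -0.58 ± 0.09 (adjusted p = 0.00913). With a library left out the fold change ran from -0.64 (without KO replicate 1) to -0.52 (without KO replicate 2). The other 8 polymerase I genes lay between -0.20 and 0.09.

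Of 37 further large-subunit genes 2 fell. The helicase gene Ddx24 had 7838 and 7908 in KO, against 9640 and 10273 in WT (-0.34 ± 0.05, adjusted p = 0.0102). Mdn1, the large AAA ATPase that strips assembly factors from the particle, merged with AK037999, had 8878 and 9621 in KO, against 10790 and 12210 in WT (-0.31 ± 0.08, adjusted p = 0.036). In both genes the KO libraries lay below the WT libraries. Of 13 genes of the RNA exosome, which trims ribosomal precursors, Exosc3 fell, with 1774 and 1749 in KO, against 2072 and 2232 in WT (-0.29 ± 0.07, adjusted p = 0.0426). Of 35 further small-subunit genes Riok1, an atypical kinase of late maturation merged with Cage1, rose, with 5163 and 4743 in KO, against 4131 and 4053 in WT (0.27 ± 0.06, adjusted p = 0.0314). Riok1 was not called with upper-quartile or CPM scaling (adjusted p = 0.0548 and 0.0597), and Exosc3 was not called with no filter (0.0515). Without WT replicate 1 and without WT replicate 2 the fold changes were 0.29 and 0.26 for Riok1 and -0.38 and -0.29 for Ddx24. In the same order they were -0.40 and -0.22 for Mdn1 and -0.34 and -0.23 for Exosc3.

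Of 10 genes of the MYC network, known upstream regulators of these genes, 2 fell, 2 rose and 6 did not pass, beside 8.97% lower and 11.9% higher among all tested loci. Myc had 9413 and 10164 in the KO libraries, against 12714 and 12854 in the WT libraries. Both KO values were lower, by 23.5% in the fit (-0.39 ± 0.05, adjusted p = 0.0079). Without WT replicate 1 or 2 the fold change was -0.39 and -0.38. Mycn, a paralog expressed in stem cells, had 210 and 224 in KO, against 633 and 496 in WT (-1.36 ± 0.17, adjusted p = 0.00553).

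Mxd1 and Mxi1 encode MAX partners that repress MYC targets, and both rose. Mxd1 had 15616 and 16278 in KO, against 6209 and 7730 in WT, and so was more than doubled (1.20 ± 0.10, adjusted p = 0.00207). Mxi1 had 6616 and 6730 in KO, against 4655 and 4807 in WT (0.50 ± 0.05, adjusted p = 0.00343). DESeq2 called 3 network genes higher, beside 1896 of all 13764 tested loci. The 6 that did not pass (Max, Mxd3, Mxd4, Mlx, Mnt and Mga) lay between -0.14 and 0.23.

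In the p53 arm of the nucleolar stress response, Mdm2, the p53 ubiquitin ligase and a p53 target, rose. It had 8126 and 7700 in KO, against 5666 and 5831 in WT (0.46 ± 0.05, adjusted p = 0.00473). Cdkn1a, a classic p53 target, had 0.10 ± 0.12. Trp53 had -0.08 ± 0.04, Rpl5 0.02 ± 0.05, Rpl11 0.16 ± 0.05 (adjusted p = 0.0538) and Mdm4 0.15. Mdm2 was the 1 gene of 6 tested that passed in limma, edgeR and limma-voom, beside 11.9% of all tested loci called higher in limma. DESeq2 called 3 higher (Mdm2, Mdm4 and Rpl11), beside 1896 of all 13764 tested loci. Cdkn2a did not reach the filter.

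**Figure D4:**
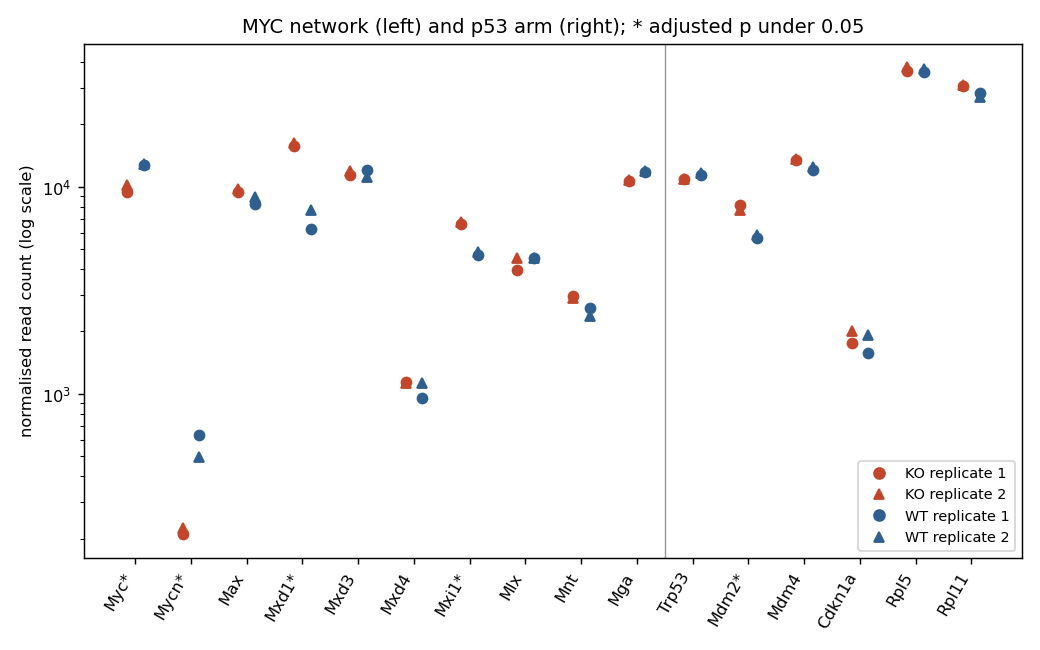
Normalised read count (log scale) in each library for genes of the MYC network, left of the line, and of the p53 arm, right of it, with KO in red beside WT in blue. Myc and Mycn were lower, and Mxd1, Mxi1 and Mdm2 higher, in both KO libraries.

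MYC and MAX bind the E-box CACGTG, so the promoters of the nucleolar genes were searched for it. RefSeq windows of GRCm38.p6, from 250 bases before to 50 after a start, were at hand for 38 of the 44 members. The palindrome CACGTG, the same on both strands, was present for 9 of the 38 genes (23.7%), against 8.09% of the 27025 genes in the table. The ETS-type motif CCGGAAG, searched on both strands, was present for 13 of the 38 (34.2%), against 9.93% of genes. The letters of these motifs cannot overlap, and a match is only a run of letters. The 4 windows with the E-box closest to the start are shown, with the motif in capitals, as examples of this element in the gene set. They were chosen after the values were seen, since no called member with a promoter at hand held the motif.
Pes1, chr11:3963967-3963992, plus strand: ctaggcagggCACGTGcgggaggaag
Utp18, chr11:93885771-93885796, minus strand: gagcgccggtCACGTGgcttgcggcg
Wdr43, chr17:71616222-71616247, plus strand: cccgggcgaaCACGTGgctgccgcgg
Tsr1, chr11:74898094-74898119, plus strand: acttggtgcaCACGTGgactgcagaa

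The genes with these E-boxes had small fold changes. Pes1 had a fold change of 0.02, Utp18 of 0.01, Wdr43 of -0.02 and Tsr1 of -0.09. The 9 members with an E-box (also Ltv1, Utp20, Mybbp1a, Rrn3 and Nop2) had a median of -0.08, between -0.12 and 0.02, while the 29 members with a promoter and no E-box had a median of -0.06. Of the 3 genes that fell, Ddx18 and Utp15 had no CACGTG in the window, and the promoter of Npm1 was not analysed here.

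Some nucleolar genes carry snoRNAs inside their transcripts. Apart from the single-locus rows, the table has rows that join a pair of loci, and 7 of these join a member with a snoRNA inside it. No source used here says which reads such a row counts. The rows were singled out after their values were seen, and 6 of the 7 passed the filter in a fit over all 14190 rows. The snoRNA sequences of the Ncl and Gnl3 rows, which carry the larger differences, are given from GENCODE M21 (GRCm38, minus strand). Capitals mark the ACA box of the H/ACA snoRNA Snora75 and, in the box C/D snoRNAs, the C box TGATGA and the D box CTGA where these exact letters were found.
Snora75, in Ncl, chr1:86351169-86351301: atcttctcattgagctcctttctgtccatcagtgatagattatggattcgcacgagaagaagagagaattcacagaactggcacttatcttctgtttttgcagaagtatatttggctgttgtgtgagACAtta
Snord82, in Ncl, chr1:86356261-86356330: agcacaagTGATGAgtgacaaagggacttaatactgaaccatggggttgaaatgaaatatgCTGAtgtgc
Snord19, in Gnl3, chr14:31016206-31016281: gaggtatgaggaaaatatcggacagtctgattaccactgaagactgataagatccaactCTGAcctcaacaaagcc
Snord69, in Gnl3, chr14:31014287-31014366: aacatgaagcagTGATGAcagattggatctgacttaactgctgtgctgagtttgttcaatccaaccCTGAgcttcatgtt

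The row joining Ncl and Snora75 had 337 and 359 in the KO libraries, against 183 and 224 in the WT libraries (445 and 435 reads in KO, 141 and 184 in WT). Both KO values were the higher ones, with a fold change of 0.78 ± 0.17 (adjusted p = 0.0296), while the Ncl row itself had -0.06 ± 0.04. The row joining Gnl3 and Snord69 had 174 and 166 in KO, against 95.8 and 96.4 in WT (0.81 ± 0.20, adjusted p = 0.037), again without overlap. Of all 58 tested rows that join a locus and a snoRNA, 3.45% were called higher, which is these 2 rows, and their median was -0.02. The row joining Ncl and Snord82 had 47.0 and 58.6 in KO, against 28.5 and 31.7 in WT (0.78 ± 0.32, adjusted p = 0.132). The row joining Gnl3 and Snord19 had 152 and 150.2 in KO, against 109 and 102 in WT (0.51 ± 0.20, adjusted p = 0.118).

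Rows of the other host genes gave smaller differences. The row joining Nop56 and Snord110 had 50.8 and 50.3 in KO, against 33.7 and 48.8 in WT, and that joining Nop56 and Snord57 had 380.5 and 396 in KO, against 390 and 437 in WT. Neither passed (adjusted p = 0.528 and 0.677), and the Nop56 and Snord57 row overlapped. The row joining Nop58 and Snord11 was under the filter. With a library left out the fold change ran from 0.63 to 0.93 for Ncl and Snora75 and from 0.78 to 0.85 for Gnl3 and Snord69. These fits leave 1 library in a group, so no p-value is given for them. The lowest adjusted p over the alternatives was 0.0223 for the Ncl row and 0.0419 for the Gnl3 row.

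**Figure D5:**
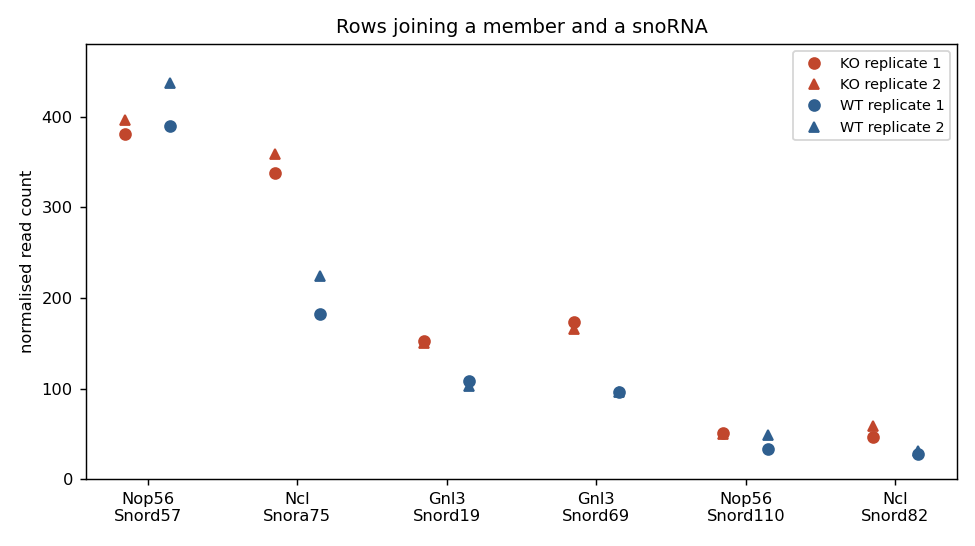
Normalised read count in each library for the 6 tested rows that join a nucleolar gene and a snoRNA inside it, with KO in red left of WT in blue. In 5 of the 6 rows both KO libraries lay above both WT libraries, and in the Nop56 and Snord57 row they did not. Among all tested single loci 32.5% had both KO libraries above, and the share among joined rows was not computed. The rows were singled out after their values were seen.

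Markers of other cells moved between the genotypes alongside these results. Kit was at 18483 and 18889 in KO, against 17739 and 16149 in WT. Markers were called in limma with the deposited scaling, where 8.97% of all tested loci were lower and 11.9% higher. Their summed levels are in CPM (read counts scaled to a fixed library total), in which the median over all loci was -0.07. Of 10 stem and progenitor markers 6 fell and 1 rose, with a summed level of 1472 to 1496 CPM in KO and 1721 to 1726 in WT. Of 14 mature neutrophil markers 13 rose, with a summed level of 32970 to 35138 CPM in KO and 18240 to 20217 in WT, although the gate should lack mature cells. Of 13 tested erythroid markers 7 rose, with 3034 to 3632 CPM in KO and 2116 to 2393 in WT, and of 10 B cell markers 4 fell, with 977 to 1393 CPM in KO and 1828 to 1910 in WT. Of 10 T and NK cell markers 3 fell, with 202 to 228 CPM in KO and 263 to 277 in WT, and of 9 monocyte and macrophage markers 2 rose and 3 fell, with 753 to 774 CPM in KO and 733 to 750 in WT. Apart from 1 erythroid row that did not pass the filter, no marker was at 0 in any library. Of 15 genes of mitosis and DNA replication 0 were called by limma and limma-voom, 1 was lower by edgeR with TMM scaling and by DESeq2, and 1 was lower at an unadjusted p under 0.05. Their median was -0.05. Their summed normalised read count was 428973 and 423425 in KO, against 431455 and 426829 in WT, so the genotypes overlapped. In CPM, where the median over all loci was -0.07, the sum was 6691 to 6771 in KO and 7032 to 7149 in WT. The part of these markers in the members' values was not tested.

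The scale of the libraries bears on the direction of small changes. Of all loci called, 57.0% were higher in KO with the deposited scaling, 42.6% with upper-quartile scaling and 39.2% with CPM scaling, in which the median over all loci was -0.07. The members' median was -0.12 with upper-quartile and -0.14 with CPM scaling, so their median stayed below that of all loci, which was -0.06 and -0.07 there. With these scalings 6 and 8 members were called lower and none higher. Among all 13764 tested loci, 1901 and 2060 were called lower with them, against 1235 with the deposited scaling. Beside Npm1, Utp15, Ddx18 and Heatr1, both scalings called Bysl (adjusted p = 0.0462 and 0.036) and Rrp1b (0.0449 and 0.0419), and CPM scaling called Nop58 (0.0489) and Utp20 (0.0473). With the deposited scaling the adjusted p of these 4 genes was 0.131, 0.0889, 0.183 and 0.145. The fold change of Rrp1b was -0.29 without KO replicate 2 and -0.12 without KO replicate 1.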

How the data were processed

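RNA sequencing of 4 libraries was analysed, 2 of each genotype, grouped by the labels. STAR 2.3.1t (alignment) and mm9 are named in the submitters' processing notes; no source used here names the counter, annotation, strand setting or scaling tool. The deposited values are a signal: the authors' read counts, multiplied by 1 factor in each library. In every library 100% of values were whole multiples of the smallest step, within 0.001 of a read, so whole reads were recovered.

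The test was limma 3.58.1 in R 4.3.3 on log2(value + 1), with a trend for the mean and genotype as the term, for single-locus rows with at least 10 in at least 2 libraries. The log2(value + 1) scale understates changes of low loci. P-values were adjusted over all 13764 tested loci (Benjamini-Hochberg, threshold 0.05). They measure the spread between these libraries, which differed in sex markers within each genotype. Rows joining a pair of loci held 0.0619% to 0.0676% of reads and were fitted separately with all rows. Alternatives were edgeR 4.0.16, DESeq2 1.42.0 and limma-voom on recovered reads, other scalings, pseudocounts and filters, a replicate block and leaving out each library. Leaving out a library leaves 1 library in a group, so fold changes alone are given for those fits. The tests were tested on simulated data. Levels per length used GENCODE M21 exons.

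Members and lists were chosen with earlier results of these data known. Values in every library are given for called members, the member with the smallest adjusted p of each role, merged members, and called genes of the further, MYC network and p53 lists. The marker lists are given as counts and summed levels, with library values for Kit alone.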

Additional observations from a re-analysis of the deposited data

Results flagged for a closer look

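Rows that join a nucleolar gene with a snoRNA inside it stand outside the comparison of single loci, and in 5 of them the mean of the KO libraries lay above both WT libraries. They were singled out after their values were seen, and the share of all joined rows with this order was not computed. The mean normalised read count in KO was 348 for Ncl and Snora75, 170 for Gnl3 and Snord69, 151 for Gnl3 and Snord19, 52.8 for Ncl and Snord82 and 50.6 for Nop56 and Snord110. The WT means were 204, 96.1, 106, 30.1 and 41.2 in the same order. The rows of the snoRNAs alone gave 0.62 ± 0.24 for Snora75 (adjusted p = 0.119), 0.12 ± 0.35 for Snord69, -0.06 ± 0.22 for Snord19 and 0.57 ± 0.40 for Snord110. None of these 4 passed. The KO libraries were the deeper ones, and the part of depth in these low values was not tested.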

How the results depend on the processing

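Members called lower numbered 3, and were 6 with upper-quartile scaling, 8 with CPM scaling and 1 with no filter. Of all 13764 tested loci, 1901 and 2060 were lower with these scalings, and with no filter 1050 of 17956. Fits without 1 library leave 1 library in a group, so counts of calls are not given for them. Further genes called lower numbered 4, and were 12, 14 and 7 with upper-quartile scaling, CPM scaling and DESeq2. Further genes called higher numbered 1, and were 0 with upper-quartile or CPM scaling and without merged rows (a check chosen after seeing the data). With the replicate block 5 members and 7 further genes were lower, the members being Npm1, Utp15, Ddx18, Heatr1 (adjusted p = 0.036) and Nop10 (0.0333). The replicate block called 1533 of all 13764 tested loci lower, DESeq2 1480, and limma without a block 1235. The labels do not say that equal numbers pair the libraries, and deviations of same-numbered libraries correlated at 0.246 (Spearman 0.107) over 13764 loci. The members' median ran from -0.14 with CPM scaling to -0.02 without KO replicate 1. No alternative called a member higher. The sign turned for 16 members with a change of at most 0.11 in size. Upper-quartile and CPM scaling gave -0.019 and -0.031 for Nhp2, -0.043 and -0.055 for Utp18, -0.037 and -0.049 for Ddx10 and -0.037 and -0.049 for Pes1. EdgeR with RLE and DESeq2 gave 0.0027 and 0.0026 for Noc4l. With each library left out in turn the values ran from -0.20 to 0.12 for Polr1b, -0.10 to 0.027 for Ubtf, -0.10 to 0.00093 for Nolc1, -0.084 to 0.029 for Ddx21, -0.10 to 0.064 for Nop14, -0.068 to 0.021 for Wdr43, -0.23 to 0.0079 for Wdr75, -0.10 to 0.029 for Rrp12, -0.044 to 0.031 for Ltv1, -0.12 to 0.11 for Noc4l, -0.11 to 0.058 for Wdr12, -0.037 to 0.069 for Pes1 and -0.13 to 0.011 for Gnl3. The cause was not tested.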
